A study of Mus musculus with 4 samples.

Results

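The results concern 9 genes that regulate the calcium store of the endoplasmic reticulum (ER): Mrln, Fkbp1b, Atp2a2, Atp2a3, Ryr2, Itpr1, Itpr2, Itpr3 and Stim1. They were chosen by name, with earlier results of these data known. They regulate uptake into the store, release from it or the sensing of its filling. All 9 were found among the 32285 genes counted. The study profiled cells of mouse pancreatic islets by single-cell RNA sequencing on the 10x Genomics platform. Wild-type C57BL6J males aged 8 weeks gave the islets, which were then held for 24 h in 1 of 4 conditions. These were 1 mM imeglimin at 11.1 mM glucose, DMSO vehicle at 11.1 mM glucose, 1 mM imeglimin at 3.9 mM glucose and DMSO vehicle at 3.9 mM glucose. Imeglimin is an oral glucose-lowering drug, and DMSO is its solvent. Each condition is 1 library, so no difference between conditions has a replicate check, no test was made, and intervals are 95% counting intervals only. The labels do not say how many mice gave the islets of a library.

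The ER holds far more calcium than the cytosol. SERCA pumps, encoded by Atp2a2 (SERCA2) and Atp2a3 (SERCA3), move calcium into it, and myoregulin, the micropeptide made from Mrln, is known from mouse skeletal muscle as an inhibitor of SERCA. Calcium leaves through ryanodine receptors, of which Ryr2 encodes the cardiac form, and through the inositol trisphosphate receptors of Itpr1, Itpr2 and Itpr3. FKBP12.6, the product of Fkbp1b, binds ryanodine receptors and steadies their closed state, and STIM1 senses store filling and opens entry channels in the plasma membrane. In beta cells, release from this store adds to the calcium signal that drives insulin secretion.

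The reading frame of Mrln, whose level differs most between conditions in what follows, is shown because it is short: it has 46 codons before the stop. It lies in 1 exon at chr10:70219496-70219636 on the plus strand of GRCm38 (GENCODE vM21), is 141 bases long, and is printed 5′ to 3′ with its start and stop codons in capitals.
Mrln reading frame: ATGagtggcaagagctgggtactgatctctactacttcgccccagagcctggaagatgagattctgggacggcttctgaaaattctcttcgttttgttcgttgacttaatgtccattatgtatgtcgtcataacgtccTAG
Promoters from RefSeq (GRCm38.p6, 250 bases before to 50 after the start) were listed for 7 of the 9 genes, all but Atp2a2 and Itpr1. They were searched on both strands for the E-box letters CACGTG, which form part of carbohydrate response elements, and for TGATGNAA, the core of the element bound by stress factors of the ATF4 and CHOP families. The E-box letters occur in 7.15% and TGATGNAA in 3.97% of all 32817 promoters of this length. A longer motif, the ER stress element, was searched too and occurs in 0.119% of them. Of the 7 windows, Itpr3 held the E-box letters, which read the same on both strands, and no other match to any of the 3 motifs was found, so none overlapped. The 250 bases before the start of Itpr3 are printed with the match in capitals, beside those of Mrln, which had the highest ratio to glucose among these genes in beta-like cells and no match.
Itpr3, chr17:27057054-27057303, plus strand: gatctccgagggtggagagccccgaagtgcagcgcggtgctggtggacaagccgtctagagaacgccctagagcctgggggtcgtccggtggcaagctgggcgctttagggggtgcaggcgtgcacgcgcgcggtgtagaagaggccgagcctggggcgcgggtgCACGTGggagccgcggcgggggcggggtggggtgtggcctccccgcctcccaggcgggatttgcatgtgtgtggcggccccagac
Mrln, chr10:70204414-70204663, plus strand: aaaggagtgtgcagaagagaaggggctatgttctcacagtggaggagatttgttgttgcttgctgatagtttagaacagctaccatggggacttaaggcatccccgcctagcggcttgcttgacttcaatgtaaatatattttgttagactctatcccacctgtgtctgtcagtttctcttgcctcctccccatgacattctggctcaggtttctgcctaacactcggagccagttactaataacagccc

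In GRCm38, Mrln spans 70204664 to 70219711 on the plus strand of chromosome 10, Fkbp1b 4833174 to 4841591 on the minus strand of chromosome 12, Atp2a2 122453513 to 122502225 on the minus strand of chromosome 5 and Atp2a3 72961169 to 72993044 on the plus strand of chromosome 11. Ryr2 spans 11553102 to 12106945 on the minus strand of chromosome 13, Itpr1 108213096 to 108551109 on the plus strand and Itpr2 146108299 to 146502223 on the minus strand of chromosome 6. Itpr3 spans 27057304 to 27122223 on the plus strand of chromosome 17 and Stim1 102267806 to 102437319 on the plus strand of chromosome 7. All 9 are protein-coding. Itpr1 overlaps the counted gene Gm44040 and Itpr3 overlaps Itpr3os, both on the opposite strand; how the counting used strand is not given in the sources used here.

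After filtering there were 8427 cells with imeglimin against 7444 with vehicle at 11.1 mM glucose, and 8755 with imeglimin against 7166 with vehicle at 3.9 mM. The libraries held between 91245564 and 106092232 unique molecular identifiers (UMIs), and 114 barcodes were shared between libraries. Cells were grouped into classes by marker genes, and a class name ends in "-like" because it rests on RNA alone. Beta-like cells numbered 5443 with imeglimin against 4873 with vehicle at 11.1 mM, and 4395 with imeglimin against 4557 with vehicle at 3.9 mM. In the same order their median depth was 12813, 13038, 10156 and 12147 UMIs per cell, and the 8 beta-cell markers (Ins1 and Ins2 among them) summed to 383832, 437908, 256269 and 173500 CPM, that is, counts scaled to a fixed total per library and class. The 7 alpha-cell markers in beta-like cells summed to between 748 and 1948 CPM and were highest with imeglimin at 3.9 mM. The part of these differences in depth and marker level in the ratios below was not tested. Most clusters of beta-like cells were drawn largely from a single library, and Mrln and Fkbp1b were among the 10 leading genes of one. The levels of these genes are therefore not compared between clusters, apart from a small cluster described below.

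The 9 genes were spread over the islet in different ways. Atp2a2 was highest in beta-like cells and Itpr1 in alpha- and delta-like cells, Fkbp1b was beta-like above all, Itpr2 was highest in macrophage-like cells, and Ryr2 was nearly undetected. Levels across classes are given in plain CPM, that is, UMIs of the gene scaled to the UMI total of that class in that library, as the lowest, median and highest of the 4 libraries. Atp2a2 had 601, 903 and 1670 CPM in beta-like cells, above the range of the class next in order by median. That class was stromal-like cells, at 317, 415 and 503 CPM. The range of delta-like cells, whose highest library had 645 CPM, overlapped the beta-like one, but within each library the beta-like level was higher. Below stromal-like cells the ranges of endothelial-, delta-, macrophage- and alpha-like cells each overlapped the next, and pp-like cells came last at 205, 256 and 276 CPM, below the alpha-like range. Atp2a3 had 22.6, 56.0 and 90.9 CPM in beta-like cells, 15.8, 28.4 and 39.1 CPM in alpha-like cells and 17.8, 28.0 and 39.8 CPM in delta-like cells. These 3 ranges over libraries overlapped, but within each library the beta-like level was the highest of the 3.

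Fkbp1b had 16.9, 40.4 and 126 CPM in beta-like cells but only 1.43, 2.54 and 2.68 CPM in alpha-like cells. Free RNA in the suspension sets a limit to reading low levels. The insulin message Ins2, which alpha cells should lack, stood in alpha-like cells at 2.58% to 6.16% of its beta-like level, and Fkbp1b stood there at 2.13% to 8.47% of its own, with counting intervals that reached the Ins2 share in each library. These alpha-like values are therefore read as background. In endothelial-, macrophage- and stromal-like cells Ins2 stood at 21.0% to 37.3% of its beta-like level, and Atp2a3 was not above that share in any of these 12 sums, Fkbp1b was in 1 and Mrln in 3, so the values of these genes there are not read as expression. Itpr3 was above that share in 7 of the 12 sums, Atp2a2 and Itpr1 in 10 each, and Itpr2 and Stim1 in 11 each. The part of free RNA in the levels and class order of these genes was not tested. Fkbp1b in delta-like cells, at 9.76, 17.9 and 27.9 CPM, overlapped the beta-like range over libraries, but was below the beta-like level within each library.

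Mrln was highest in delta-like cells, which make somatostatin, at 23.8, 114 and 185 CPM. Alpha-like cells, which make glucagon, had 6.51, 49.9 and 76.8 CPM, and beta-like cells 7.47, 31.4 and 113 CPM. The ranges over libraries of neighbouring classes overlapped, but within each library delta-like cells had the highest level of these classes. Unlike Fkbp1b, Mrln in alpha-like cells was far above the Ins2 share in each of the 4 libraries: it stood at between 51.5% and 433% of its beta-like level.

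The 3 inositol trisphosphate receptor genes each had another order. Itpr1 had 98.2, 207 and 318 CPM in alpha-like cells and 74.0, 163 and 197 CPM in delta-like cells, which overlapped. Its pp-like range of 46.0, 67.2 and 86.2 CPM lay above that of endothelial-like cells, and beta-like cells had 11.9, 19.2 and 31.8 CPM. Itpr2 had 30.5, 33.9 and 37.2 CPM in macrophage-like cells, a range apart from the 18.6, 20.8 and 25.6 CPM of endothelial-like cells; beta-like cells had 5.40, 10.8 and 18.7 CPM, and alpha-like cells 2.10, 2.63 and 3.41 CPM. Itpr3 had 30.3, 45.3 and 57.2 CPM in delta-like, 36.2, 37.3 and 41.2 CPM in alpha-like and 13.9, 22.6 and 38.7 CPM in beta-like cells, with overlap between neighbours. Stim1 varied least: its highest median, in delta-like cells, was 73.0 CPM, and its lowest, in alpha-like cells, was 34.6 CPM. The alpha-like range of 34.4 to 37.1 CPM lay below that of macrophage-like cells, next in order, and overlapped those of pp- and stromal-like cells.

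**Figure D1:**
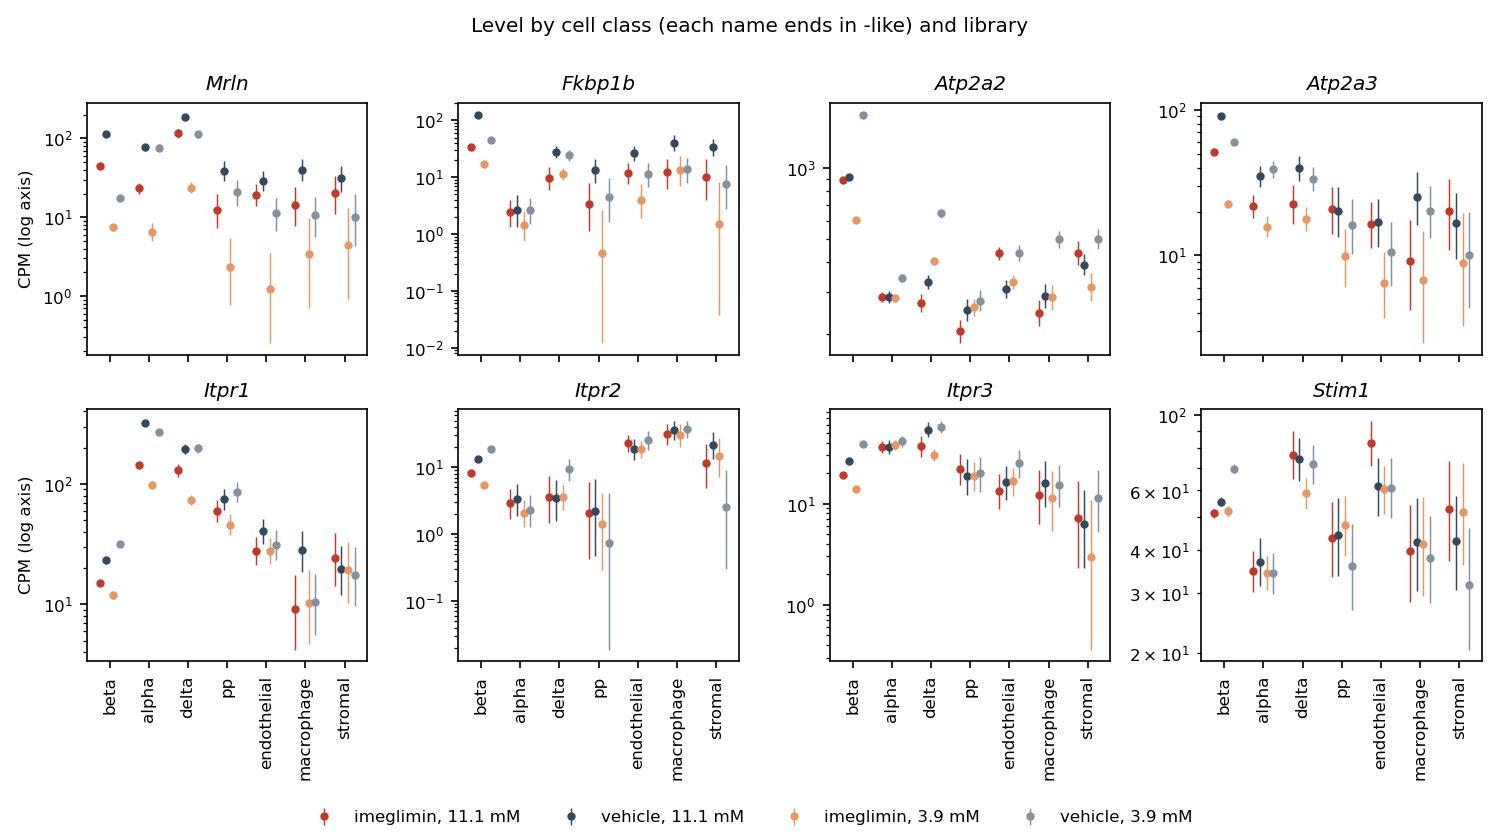
Level of 8 of the regulators (Ryr2 is left out) in 7 cell classes, as CPM on a log axis; each point is 1 library with its 95% Poisson counting interval, in the order imeglimin 11.1 mM, vehicle 11.1 mM, imeglimin 3.9 mM, vehicle 3.9 mM. Itpr1 is highest in alpha- and delta-like cells (medians of 207 and 163 CPM), Itpr2 in macrophage-like cells (33.9 CPM), and Atp2a2 in beta-like cells (903 CPM).

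Ryr2 gave 7 UMIs in all 28 sums of the 7 classes over the 4 libraries, and 23 of the sums were at 0. Beta-like cells had 2 UMIs with imeglimin against 2 with vehicle at 11.1 mM, and 1 with imeglimin against 0 with vehicle at 3.9 mM, for which the upper counting limits were 0.0928, 0.0996, 0.105 and 0.0595 CPM. Over the 4 libraries the 5 UMIs of beta-like cells came to 0.0188 CPM (0.00612 to 0.0440), and no ratio is given for Ryr2. Of the other ryanodine receptor genes, Ryr1 gave 2 UMIs and Ryr3 gave 69, with at most 15 in a sum, in delta-like cells with vehicle at 11.1 mM glucose. The classical muscle inhibitors of SERCA related to myoregulin, phospholamban (Pln) and sarcolipin (Sln), gave 4 and 1 UMIs, and Atp2a1, which encodes the SERCA of fast skeletal muscle, gave 16.

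Within beta-like cells, levels are in CPM scaled by the trimmed mean of M-values (TMM), and a ratio was counted where it was at least 1.5-fold and the gene reached 20 CPM in either library. Mrln and Fkbp1b were higher at 11.1 than at 3.9 mM glucose, and lower with imeglimin than with vehicle. Mrln had 3518 UMIs (50.6 CPM) with imeglimin against 8201 (122 CPM) with vehicle at 11.1 mM, and 396 UMIs (7.55 CPM) with imeglimin against 1095 (14.5 CPM) with vehicle at 3.9 mM. The vehicle library at 11.1 mM was the highest and the imeglimin library at 3.9 mM the lowest, and no 2 of the 4 intervals overlapped. The log2 ratio of imeglimin to vehicle was -1.27 (-1.33 to -1.21) at 11.1 mM, a 2.41-fold lower level. At 3.9 mM it was -0.94 (-1.11 to -0.77), with both libraries below 20 CPM. The log2 ratio of 11.1 to 3.9 mM glucose was 3.08 (2.98 to 3.17) under vehicle, 8.43-fold, which ranked 5897 from the lowest of 5906 genes compared. Under imeglimin it was 2.74 (2.59 to 2.90), 6.70-fold.

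Fkbp1b had 38.8 CPM with imeglimin against 136 CPM with vehicle at 11.1 mM, and 17.1 CPM with imeglimin against 37.8 CPM with vehicle at 3.9 mM. Under TMM scaling its level with imeglimin at 11.1 mM, with an interval of 37.3 to 40.3 CPM, was thus close to that with vehicle at 3.9 mM, at 36.4 to 39.2 CPM. The log2 ratio of imeglimin to vehicle was -1.81 (-1.87 to -1.75) at 11.1 mM, rank 15 from the lowest of 5647 genes, and -1.14 (-1.25 to -1.03) at 3.9 mM. That of 11.1 to 3.9 mM glucose was 1.85 (1.79 to 1.91) under vehicle and 1.18 (1.07 to 1.29) under imeglimin. Fkbp1a, the close relative whose product FKBP12 also binds these channels, varied less, at 184 CPM with imeglimin against 222 with vehicle at 11.1 mM, and 209 with imeglimin against 192 with vehicle at 3.9 mM. The coding sequences of Fkbp1b and Fkbp1a share 245 of 327 bases (74.9%). At 3.9 mM the log2 ratio of imeglimin to vehicle for Fkbp1a was 0.12 (0.09 to 0.16).

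The differences in both genes lay in the share of cells with a UMI as well as in the sums. Mrln was seen in 39.9% of beta-like cells with imeglimin against 66.9% with vehicle at 11.1 mM, and in 7.42% with imeglimin against 19.1% with vehicle at 3.9 mM. Fkbp1b was seen in 34.7% with imeglimin against 72.1% with vehicle at 11.1 mM, and in 16.0% with imeglimin against 42.5% with vehicle at 3.9 mM. In alpha-like cells, read above as background for Fkbp1b, its share was between 1.04% and 2.22% at median depths of 5871 to 7606 UMIs. With each beta-like cell thinned to 3000 UMIs, which left out 75, 49, 97 and 31 shallower cells in the order of libraries used here, the Mrln shares were 12.4% with imeglimin against 27.2% with vehicle at 11.1 mM, and 2.35% with imeglimin against 4.84% with vehicle at 3.9 mM. Those of Fkbp1b were 9.65% and 30.8% at 11.1 mM, and 5.05% and 13.5% at 3.9 mM, imeglimin first in each pair. For Mrln the order of the 4 libraries was the same in shares, thinned shares and CPM. For Fkbp1b the share was lower with imeglimin at 11.1 mM than with vehicle at 3.9 mM while the TMM-scaled CPM were close. In plain CPM the order was that of the shares: 2698 of 77812314 UMIs with imeglimin at 11.1 mM against 2854 of 61984091 with vehicle at 3.9 mM. The order of these 2 libraries thus depends on the scaling, and none is read.

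**Figure D2:**
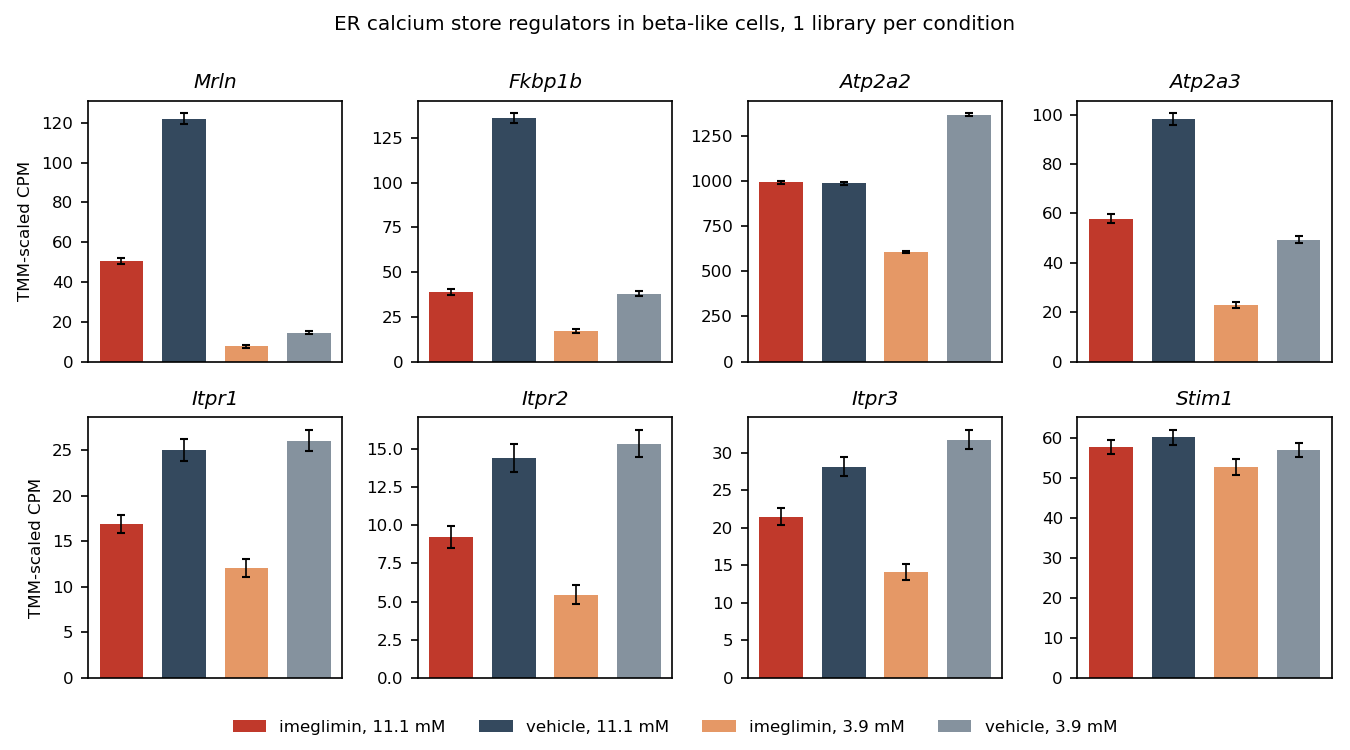
Level of 8 of the regulators in beta-like cells, as TMM-scaled CPM on linear axes from 0; each bar is 1 library and each error bar its 95% Poisson counting interval. Mrln, Fkbp1b and Atp2a3 are highest with vehicle at 11.1 mM glucose (122, 136 and 98.2 CPM), Atp2a2 with vehicle at 3.9 mM (1369 CPM), and Stim1 is between 52.7 and 60.1 CPM in all 4 libraries.

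The genes of the 2 SERCA pumps differed. Atp2a2 had 995 CPM with imeglimin against 989 with vehicle at 11.1 mM, and 607 with imeglimin against 1369 with vehicle at 3.9 mM. At 11.1 mM its log2 ratio of imeglimin to vehicle was 0.01 (-0.01 to 0.03), and its sign turned with the scaling, to -0.18 when hormone and mitochondrial genes were left out of the total. At 3.9 mM the log2 ratio was -1.17 (-1.19 to -1.16), a 2.26-fold lower level, and the imeglimin library was the lowest of the 4. The log2 ratio of 11.1 to 3.9 mM glucose was -0.47 (-0.48 to -0.46) under vehicle and 0.71 (0.69 to 0.73) under imeglimin. Atp2a3, like Mrln and Fkbp1b, was highest with vehicle at 11.1 mM and lowest with imeglimin at 3.9 mM: it had 57.8 CPM with imeglimin against 98.2 with vehicle at 11.1 mM, and 22.8 with imeglimin against 49.4 with vehicle at 3.9 mM. Its log2 ratios of imeglimin to vehicle were -0.76 (-0.82 to -0.71) at 11.1 mM and -1.11 (-1.21 to -1.02) at 3.9 mM. Its log2 ratios of 11.1 to 3.9 mM glucose were 0.99 (0.93 to 1.05) under vehicle and 1.34 (1.25 to 1.43) under imeglimin.

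The inositol trisphosphate receptor genes were lower with imeglimin at both glucose levels, more so at 3.9 mM. Itpr1 had 16.9 CPM with imeglimin against 25.03 with vehicle at 11.1 mM, and 12.0 with imeglimin against 26.1 with vehicle at 3.9 mM. Itpr2 had 9.23 CPM with imeglimin against 14.4 with vehicle at 11.1 mM, and 5.45 with imeglimin against 15.3 with vehicle at 3.9 mM, below the 20 CPM minimum throughout. Itpr3 had 21.5 CPM with imeglimin against 28.2 with vehicle at 11.1 mM, and 14.1 with imeglimin against 31.7 with vehicle at 3.9 mM. For each of the 3 genes both imeglimin libraries lay below both vehicle libraries. The log2 ratios of imeglimin to vehicle at 11.1 mM were -0.56 (-0.67 to -0.46) for Itpr1, -0.64 (-0.79 to -0.50) for Itpr2 and -0.39 (-0.49 to -0.29) for Itpr3. At 3.9 mM they were -1.11 (-1.24 to -0.98), -1.49 (-1.68 to -1.30) and -1.17 (-1.29 to -1.05) in the same order of genes. Between glucose levels under vehicle they were near 0: -0.06 (-0.15 to 0.04) for Itpr1, -0.09 (-0.22 to 0.03) for Itpr2 and -0.17 (-0.26 to -0.08) for Itpr3, and these turned to 0.12, 0.09 and 0.01 when hormone and mitochondrial genes were left out of the total. Under imeglimin they were 0.49 (0.35 to 0.63) for Itpr1, 0.76 (0.56 to 0.97) for Itpr2 and 0.61 (0.48 to 0.74) for Itpr3, Itpr1 and Itpr2 with both libraries below 20 CPM.

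Stim1 differed least, at 57.6 CPM with imeglimin against 60.1 with vehicle at 11.1 mM, and 52.7 with imeglimin against 57.0 with vehicle at 3.9 mM. Its 4 log2 ratios lay between -0.11 and 0.13, and under plain CPM, where they lay between -0.41 and -0.02, both ratios of 11.1 to 3.9 mM glucose turned negative. Stim2, its relative, had 26.7 CPM with imeglimin against 23.6 with vehicle at 11.1 mM, and 25.3 with imeglimin against 29.0 with vehicle at 3.9 mM.

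Of the 7 regulators that reached 20 CPM, 3 were at least 1.5-fold lower with imeglimin at 11.1 mM (Fkbp1b, Mrln and Atp2a3), where 4.25% of the 5647 genes compared were, and 0 were higher, where 5.79% were. None of the 7 lay above the median log2 ratio of all genes, 0.12, and their own median was -0.56. At 3.9 mM, 5 of the 6 that reached 20 CPM were lower with imeglimin (Atp2a2, Itpr3, Fkbp1b, Atp2a3 and Itpr1), against 10.6% of 5996 genes, and 0 were higher, against 12.2%; their median was -1.13 and that of all genes 0.10. For 11.1 over 3.9 mM glucose under vehicle, 3 of 7 were higher (Mrln, Fkbp1b and Atp2a3), against 9.85% of 5906 genes, and 0 were lower, against 20%. Under imeglimin 5 of 6 were higher (Mrln, Atp2a3, Fkbp1b, Atp2a2 and Itpr3), against 15.6% of 6051 genes, and 0 were lower, against 23.2%. Some of the regulators counted reached 20 CPM only in the library where they were higher, as the minimum allows for every gene. With imeglimin at 3.9 mM these were Itpr3, Fkbp1b and Itpr1. For glucose they were Mrln under vehicle, and Mrln, Fkbp1b and Itpr3 under imeglimin. The part of this minimum in the counts was not tested. These comparisons share libraries: each library stands in 2 of the 4. The regulators were chosen with earlier results of these data known, so the counts describe them and are no independent support.

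The split of all genes depended on the scaling. Higher and lower genes numbered 327 and 240 for imeglimin at 11.1 mM, 730 and 637 for imeglimin at 3.9 mM, 582 and 1182 for glucose under vehicle, and 944 and 1404 for glucose under imeglimin. Under plain CPM they numbered 248 and 285, 221 and 1349, 239 and 2795, and 683 and 1857, and without hormone and mitochondrial genes 128 and 450, 397 and 904, 907 and 728, and 1228 and 1048, in the same order of comparisons. Relative to TMM, plain CPM moved every log2 ratio by -0.05, -0.30, -0.40 and -0.15, and leaving out hormone and mitochondrial genes by -0.19, -0.15, 0.18 and 0.14. Each regulator counted above as at least 1.5-fold apart in beta-like cells had the same direction under these scalings.

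**Figure D3:**
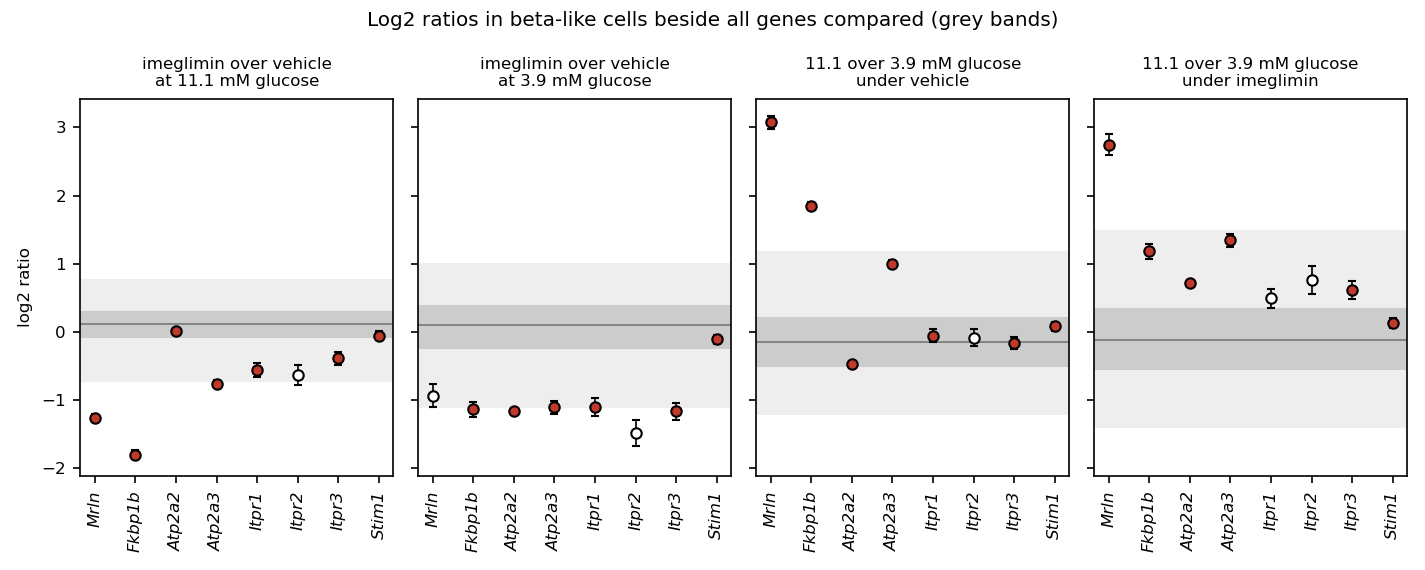
Log2 ratios of 8 of the regulators in beta-like cells in the 4 comparisons, with 95% counting intervals; red points reached 20 CPM in either library and white points did not, and the grey bands hold the middle 50% and 95% of all genes compared, with a line at their median. With imeglimin at 3.9 mM, 7 points lie at or below -0.94, while Stim1 is at -0.11.

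The difference between imeglimin and vehicle depended on glucose for some of the regulators. This difference of log2 ratios, at 11.1 mM minus at 3.9 mM, uses all 4 libraries, and 22% of 6357 genes were at least 1.5-fold apart in it in either direction. It was 1.18 (1.16 to 1.21) for Atp2a2, 0.78 (0.63 to 0.93) for Itpr3 and -0.67 (-0.79 to -0.54) for Fkbp1b, which are 3 of the 7 regulators compared. Under plain CPM the difference for Fkbp1b was -0.42, within 1.5-fold, and those for Itpr1 and Atp2a3 were past it, at 0.80 and 0.60. Atp2a2 and Itpr3 were thus lower with imeglimin mainly at 3.9 mM, and Fkbp1b more at 11.1 mM. It was 0.55 (0.38 to 0.72) for Itpr1, 0.35 (0.24 to 0.46) for Atp2a3, -0.33 (-0.51 to -0.16) for Mrln and 0.05 (-0.04 to 0.15) for Stim1. In alpha-like cells 1 of 3 regulators was apart, Mrln at 1.74 (1.25 to 2.22), against 4.04% of 3419 genes. Mrln reached the minimum used there, 50 CPM in either library, only with vehicle. In delta-like cells 2 of 5 were apart, Mrln at 1.40 (1.04 to 1.76) and Itpr1 at 0.67 (0.39 to 0.94), against 9.83% of 3694 genes. The Itpr1 difference there was within 1.5-fold in the cells with more UMIs of somatostatin than of insulin (0.48), when thinned to 3000 UMIs (0.54) and without the highest doublet scores (0.54). Without replicates these are differences between libraries, and their size relative to the spread of cultures is unknown.

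A small cluster led by the heat shock genes Hspa1a and Hspa1b was set apart within the beta-like cells. With imeglimin at 3.9 mM its 86 cells had 215 CPM of Atp2a2 in plain CPM, the lowest of that library's 5 beta-like clusters of at least 50 cells. Their Mrln and Fkbp1b, at 73.1 and 68.2 CPM, were the highest of these clusters. They held 74 of the 396 Mrln UMIs of beta-like cells in that library. Over all libraries the cluster had 362418 CPM of Ins2, which enters the plain total, and its part in these levels was not tested. Without this cluster, the log2 ratio of Mrln for imeglimin over vehicle at 3.9 mM was -1.16 in place of -0.94.

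In alpha-like cells Mrln and Itpr1 were lower with imeglimin at both glucose levels. The class is made of 2 clusters that divided by treatment: cluster 5 held 783 cells with imeglimin against 58 with vehicle at 11.1 mM, and 1030 against 24 at 3.9 mM, whereas cluster 9 held 50 against 551 and 31 against 608. The part of this division in the ratios was not tested. Here and in delta-like cells a gene was compared where it reached 50 CPM in either library. Mrln had 24.0 CPM with imeglimin (135 UMIs) against 72.4 with vehicle (315 UMIs) at 11.1 mM, and 7.13 CPM with imeglimin (59 UMIs) against 71.8 with vehicle (458 UMIs) at 3.9 mM. The 2 vehicle libraries overlapped and both imeglimin libraries lay below them. The log2 ratio of imeglimin to vehicle was -1.59 (-1.90 to -1.30) at 11.1 mM and -3.33 (-3.75 to -2.94) at 3.9 mM, a 10.1-fold lower level that ranked 2 from the lowest of 3291 genes. The log2 ratio of 11.1 to 3.9 mM glucose under vehicle was 0.01 (-0.20 to 0.22), whereas in beta-like cells it was 3.08. Under imeglimin it was 1.75 (1.30 to 2.22), with both libraries below 50 CPM. Mrln was seen in 13.3% of alpha-like cells with imeglimin against 34.5% with vehicle at 11.1 mM, and in 5.18% with imeglimin against 41.8% with vehicle at 3.9 mM; thinned to 3000 UMIs, the shares were 5.88% and 20.2% at 11.1 mM and 2.13% and 17.7% at 3.9 mM, leaving out 33, 45, 28 and 28 shallower cells.

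Itpr1 had 147 CPM with imeglimin against 300.3 with vehicle at 11.1 mM in alpha-like cells, and 108 with imeglimin against 255 with vehicle at 3.9 mM. Its log2 ratios of imeglimin to vehicle were -1.03 (-1.15 to -0.90) and -1.25 (-1.37 to -1.13). Of the 3 regulators that reached 50 CPM, these 2 were at least 1.5-fold apart with imeglimin at 11.1 mM, where 11.8% of 3160 genes were, and at 3.9 mM, where 20.7% of 3291 were. At both glucose levels Mrln reached 50 CPM only with vehicle, where it was higher. The part of this minimum in these counts was not tested. Atp2a2, the third, had 295 CPM with imeglimin against 271 with vehicle at 11.1 mM, and 309 with imeglimin against 323 with vehicle at 3.9 mM. Between glucose levels 0 of 3 regulators were 1.5-fold apart under vehicle and 0 of 2 under imeglimin, where 1.22% of 3021 and 5.45% of 3172 genes were. Itpr3, at 34.5 to 41.7 CPM, and Stim1, at 32.3 to 37.7 CPM, stayed below the minimum and had overlapping intervals in all 4 libraries.

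In delta-like cells, of which there were 270 with imeglimin against 319 with vehicle at 11.1 mM, and 595 with imeglimin against 314 with vehicle at 3.9 mM, Mrln and Itpr1 were again lower with imeglimin. This class held insulin message unevenly: Ins2 stood at 10.3% of its beta-like level with imeglimin against 7.36% with vehicle at 11.1 mM, but at 45.8% with imeglimin against 25.1% with vehicle at 3.9 mM. Each log2 ratio counted as past 1.5-fold is therefore followed by that from the cells with more Sst than Ins1 and Ins2 UMIs together. This alternative was chosen after seeing the data and kept 259, 301, 346 and 234 cells in the same order. Mrln had 120 CPM with imeglimin against 185 with vehicle at 11.1 mM, and 25.2 with imeglimin against 103 with vehicle at 3.9 mM. Its log2 ratios of imeglimin to vehicle were -0.63 (-0.86 to -0.40) at 11.1 mM and -2.03 (-2.31 to -1.75) at 3.9 mM, which ranked 2 from the lowest of 3483 genes, and in the cells with more Sst they were -0.68 and -2.06. Its log2 ratio of 11.1 to 3.9 mM glucose was 0.85 (0.65 to 1.05) under vehicle and 2.25 (1.95 to 2.56) under imeglimin.

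Itpr1 had 135 CPM with imeglimin against 195 with vehicle at 11.1 mM in delta-like cells, and 78.4 with imeglimin against 180 with vehicle at 3.9 mM, so that both imeglimin libraries lay below both vehicle libraries. Its log2 ratios of imeglimin to vehicle were -0.53 (-0.75 to -0.31) and -1.20 (-1.37 to -1.02), the second -1.02 in the cells with more Sst. Itpr3 had 38.4 CPM with imeglimin against 53.5 with vehicle at 11.1 mM, and 32.1 with imeglimin against 52.1 with vehicle at 3.9 mM, and its log2 ratio at 3.9 mM was -0.70 (-0.997 to -0.403), or -0.49 in the cells with more Sst. Of the 5 regulators that reached 50 CPM, 1 was at least 1.5-fold apart with imeglimin at 11.1 mM (Mrln), against 7.12% of 3271 genes. At 3.9 mM 3 of 5 were apart, against 19.2% of 3483 genes. Of these, Mrln and Itpr3 reached 50 CPM only with vehicle, where they were higher, and the part of this minimum was not tested. The count of 1 at 11.1 mM was 0 without barcodes shared between libraries, where the log2 ratio of Mrln was -0.57. With cells kept only from 10000 UMIs on and up to 5% mitochondrial it was -0.51, also within 1.5-fold.

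For 11.1 over 3.9 mM glucose in delta-like cells, 2 of 5 regulators (Mrln and Atp2a2) were apart under vehicle, against 6.87% of 3290 genes, and 3 of 4 (Mrln, Itpr1 and Atp2a2) under imeglimin, against 20.8% of 3472. Under imeglimin Mrln reached 50 CPM only at 11.1 mM, where it was higher. Atp2a2 had 280 CPM with imeglimin against 332 with vehicle at 11.1 mM, and 430 with imeglimin against 587 with vehicle at 3.9 mM. Its log2 ratios of imeglimin to vehicle were -0.24 at 11.1 mM and -0.45 at 3.9 mM, neither past 1.5-fold. The ratio at 3.9 mM ran from -0.67 to -0.10 over the alternatives. The difference of these ratios, 0.21, was -0.06 in the cells with more Sst. The log2 ratios of Atp2a2 to glucose, -0.82 (-0.94 to -0.71) under vehicle and -0.62 (-0.76 to -0.48) under imeglimin, were -0.23 and -0.29 in the cells with more Sst, and that of Itpr1 under imeglimin, 0.79 (0.56 to 1.01), was 0.31. In those cells 1 regulator, Mrln, was apart under each treatment, at 0.60 under vehicle and 1.98 under imeglimin.

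**Figure D4:**
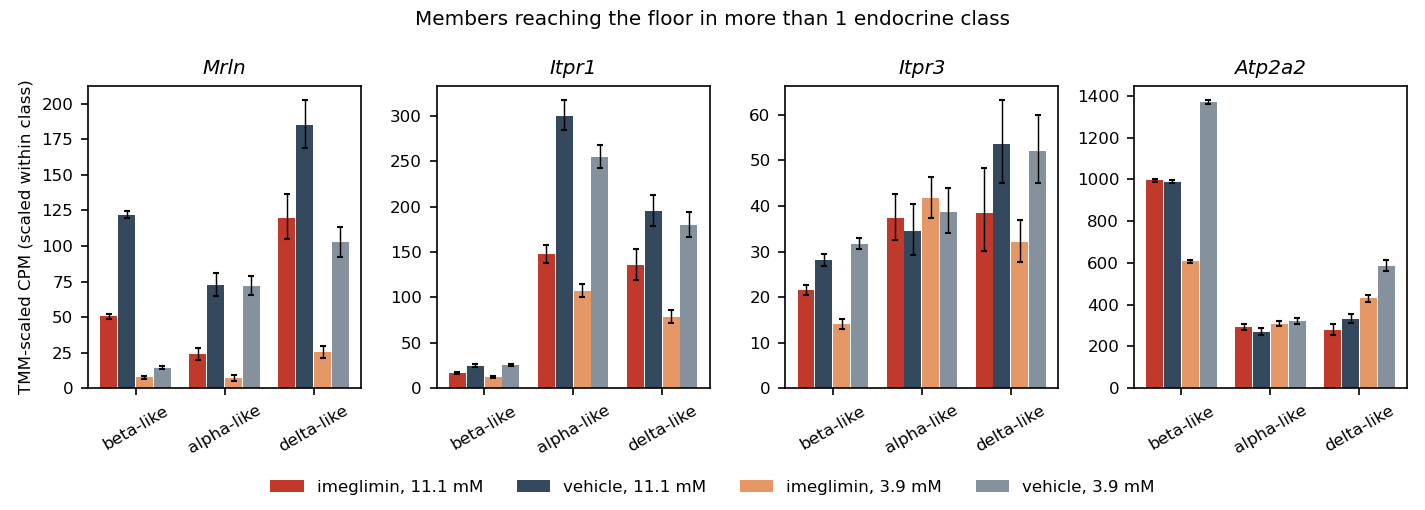
Mrln, Itpr1, Itpr3 and Atp2a2 in beta-, alpha- and delta-like cells, as CPM scaled by TMM within each class on linear axes; each bar is 1 library and each error bar its 95% Poisson counting interval. In all 3 classes Mrln and Itpr1 are lower with imeglimin than with vehicle at both glucose levels, and in alpha-like cells the 2 vehicle libraries have 72.4 and 71.8 CPM of Mrln.

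Other genes tied to the ER calcium store, a list of 92 genes chosen with earlier results of these data known, were compared in beta-like cells. The list also takes in calcium transport at the plasma membrane, Golgi pumps and genes of the mitochondria and their contact with the ER. Of 99 symbols listed, 7 were not among the genes counted and were left out. With imeglimin at 11.1 mM, 4 of the 50 that reached 20 CPM were at least 1.5-fold higher and 1 was lower, against 5.79% and 4.25% of all genes, and their median log2 ratio was 0.21, against 0.12 for all genes and -0.56 for the 7 regulators. The 4 were Hspa9, a mitochondrial chaperone at the contact with the ER (501 CPM with imeglimin against 280 with vehicle, log2 ratio 0.84), Hspa5, the ER chaperone BiP (0.70), Cisd2, an ER iron-sulphur protein (0.64), and Herpud1, a factor of ER protein disposal (0.59). Ero1lb, the ER oxidase of beta cells, was lower, at 352 CPM with imeglimin against 644 with vehicle (-0.87). Of the 11 genes compared in the group listed as calcium binders of the ER lumen, 10 lay above the median of all genes. Their median was 0.39. With imeglimin at 3.9 mM it was 5 of 10, with a median of 0.19 against 0.10 for all genes. Groups of the list differed at 11.1 mM: of 6 release channel partners 1 lay above the median of all genes, and their median was -0.04. No shared rise with imeglimin is read from the group of calcium binders.

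With imeglimin at 3.9 mM, 4 of 50 were higher and 5 lower, against 12.2% and 10.6% of all genes, with a median of -0.09 against 0.10 for all genes. Mcu, the pore of the mitochondrial calcium uniporter (26.4 CPM with imeglimin against 11.5 with vehicle, 1.19), Selenok, an ER selenoprotein (0.87), Hsp90b1, the ER chaperone GRP94 (0.87), and Atp2b1, a calcium pump of the plasma membrane (0.83), were higher. S100a1, a calcium-binding partner of SERCA and ryanodine receptors (88.2 CPM with imeglimin against 183 with vehicle, -1.05), Asph, whose splice forms include junctin and junctate (-0.75), Wfs1, wolframin of the ER membrane (-0.66), and Tmbim6, a leak channel of the ER (-0.61), were the lowest.

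For 11.1 over 3.9 mM glucose, 6 of 49 were higher and 8 lower under vehicle, against 9.85% and 20% of all genes, and 11 of 51 were higher and 4 lower under imeglimin, against 15.6% and 23.2%. In these 4 comparisons the store list is described by its genes, and no count is read as particular to it. Under vehicle the highest were Ero1lb (1.51), Atp2b2, a plasma membrane calcium pump (1.12), Selenok (1.11) and Sec61a1, the channel of the ER translocon (1.11), and the lowest were Vdac3, a channel of the outer mitochondrial membrane (-1.21), Hspa9 (-1.21) and Sri, sorcin, a calcium sensor that binds SERCA and ryanodine receptors (-1.02), and Vdac2 (-0.86). Under imeglimin the highest were Sec61a1 (1.69), P4hb, a protein disulphide isomerase (1.30), Asph (1.25) and Wfs1 (1.22), and the lowest were Mcu (-1.07), Vdac2 (-0.90), Sri (-0.82) and Hspa9 (-0.70).

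**Figure D5:**
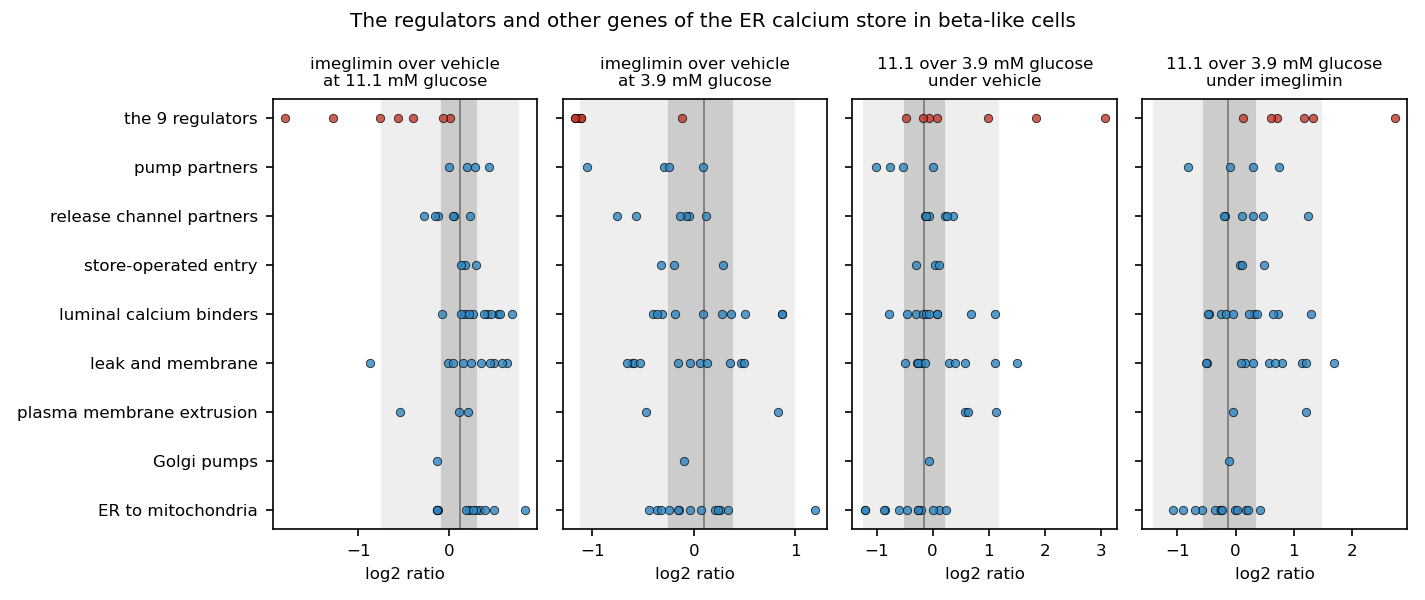
Log2 ratios in beta-like cells of the regulators (red) and of the genes of the store list by group (blue) that reached 20 CPM in either library. Grey bands hold the middle 50% and 95% of all genes compared, with a line at their median. With imeglimin at 3.9 mM, 5 of the 6 regulators shown lie between -1.17 and -1.11, while the other genes have a median of -0.09.

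The genes whose levels went most like those of 7 of the regulators (Itpr2 and Ryr2 did not reach 20 CPM in beta-like cells and were left out) were found over the 28 sums of class and library, by Pearson's r of log2(CPM + 1) among 9604 genes; the sums share libraries and classes, so r is a description. For Mrln they included Yipf2 (0.88) and Acly, which encodes ATP citrate lyase (0.87). For Fkbp1b they were Slc2a2, the glucose transporter GLUT2 (0.92), Glp1r, the GLP-1 receptor (0.91), and Prss53 (0.90). For Atp2a3 they were Acly (0.90), Phactr1 (0.87) and Slc37a4, the glucose-6-phosphate transporter of the ER (0.87). For Atp2a2 they were Abhd17c, Gsdma and Agpat3 (0.88 each), and for Itpr1 Zfp638, Tia1 and Oxtr, the oxytocin receptor gene (0.93 to 0.94). For Itpr3 they were Neurl1a (0.88), Unc13b and Samd10 (0.87 each), and for Stim1 Peg13 (0.84), Fgd6 (0.83) and Sox11 (0.79). Among the regulators themselves r was highest between Mrln and Atp2a3 (0.76) and between Itpr1 and Itpr3 (0.74).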

How the data were processed

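Count matrices of 4 single-cell libraries were used as the authors deposited them: UMI counts, whole numbers, for each gene in each barcode. Per the submitters' processing notes, the tools named are Cell Ranger 6.0.2 and the build mm10. The deposited counts were summed and scaled here. The 9 genes, the list of other store genes, the marker genes and the comparisons were chosen with earlier results of these data known.

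A barcode was kept from 1000 UMIs and 500 genes on, if mitochondrial genes took 20% of its UMIs or less. The doublet caller scrublet called 0 doublets in each library and so did not work; no doublets were removed, except in an alternative. Counts were log-normalised, and all 4 libraries were clustered jointly by the Leiden method (scanpy 1.11.5, resolution 1, 2000 variable genes, 30 principal components, no integration). Clusters got their names from marker genes; clusters with mixed hormones stayed unnamed, by a limit (16.7% of a hormone's highest cluster level) chosen after seeing the data. The 4 clusters with mixed hormones held 2.77% to 10.2% of cells. A further 3 stayed unnamed for few UMIs or for their leading genes, so that unnamed cells made up 11.2% to 20.3% of a library. Of these 3, the cluster led by markers of another class had 156907 CPM of Ins2, and Mrln was among its 10 leading genes. It held 620 cells with imeglimin against 706 with vehicle at 11.1 mM, and 41 against 52 at 3.9 mM. Unnamed cells held 18.1% to 33.0% of the Mrln UMIs of a library and enter no ratio.

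UMIs were summed per class and library and scaled by TMM (edgeR 4.0.16) or by the plain total. Ratios are of the first-named condition over the second, with exact 95% conditional intervals for counting error (differences of ratios have normal-approximation ones); sums of 0 were set to 3 UMIs, and no ratio is given where both sums are at or under 3. UMI counts within a cell are not independent of each other, so the intervals are too narrow as errors of a culture. The genes named beside the 9 were the relatives by name, up to 4 highest and 4 lowest of the store list and the 3 most alike, of which 1 is not reported here. The step that counts genes past 1.5-fold was tested on simulated counts, drawn from the same profile for all libraries except for chosen genes. These counts hold no differences between cells or cultures, so the test does not bear on those. GENCODE vM21 holds 99.6% of the 32285 gene identifiers.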

Additional observations from a re-analysis of the deposited data

Results flagged for a closer look

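Opposite directions beyond counting error were found in 4 pairs of results; with 1 library per condition none of these differences was tested. In beta-like cells the log2 ratio of 11.1 to 3.9 mM glucose was 0.71 under imeglimin and -0.47 under vehicle for Atp2a2, and 0.61 under imeglimin and -0.17 under vehicle for Itpr3; that value under vehicle was 0.01 when hormone and mitochondrial genes were left out of the total. For Atp2a2 under imeglimin the ratio to glucose was 0.71 in beta-like and -0.62 in delta-like cells, the second -0.29 in the cells with more Sst than insulin UMIs. With imeglimin at 11.1 mM, Atp2a2 was at 0.12 in alpha-like and -0.24 in delta-like cells, and the alpha-like value was -0.01 under plain CPM.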

How the results depend on the processing

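Of 29 log2 ratios of the regulators counted as at least 1.5-fold apart in beta-, alpha- and delta-like cells, 29 kept their direction and 22 stayed past 1.5-fold under every alternative run (11 or 12 for each ratio). Of 213 counts of regulators recomputed, 199 stayed within 1.5 times and 14 did not. Small moves fall within that limit. In beta-like cells with imeglimin at 11.1 mM, Itpr1, at -0.56 and not counted, was past 1.5-fold in 7 of its 12 alternatives. In beta-like cells, without hormone and mitochondrial genes in the total 5 regulators in place of 3 were lower with imeglimin at 11.1 mM, and under plain CPM 1 in place of 0 was lower and 3 in place of 5 were higher at 11.1 mM glucose, under vehicle and under imeglimin in that order. In alpha-like cells, with no floor 4 in place of 2 were apart with imeglimin at 3.9 mM and 2 in place of 0 for glucose under imeglimin, where the mean of per-cell CPM gave 1. In delta-like cells, with imeglimin at 11.1 mM the count of 1 was 2 without hormone and mitochondrial genes, 2 under the mean of per-cell CPM, 2 when thinned to 3000 UMIs, 3 with no floor and 0 without shared barcodes; with no floor 6 in place of 3 were apart with imeglimin at 3.9 mM. In the cells with more Sst than insulin UMIs, 1 was apart for glucose under vehicle in place of 2, and 1 under imeglimin in place of 3. The cause of these moves was not tested. The last 2 alternatives, without shared barcodes and by own hormone, were chosen after seeing the data. At cluster resolution 0.5 no cluster was named alpha- or delta-like, so these classes have no value there. No paired analysis was possible because each condition has 1 library. Ratios of regulators below 50 CPM in alpha- and delta-like cells are not counted, since few UMIs lie behind them.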
